A study of Homo sapiens with 12 samples.

Results

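Ferroptosis defence and iron storage were followed through 10 genes, picked by symbol from the 58302 genes listed: AIFM2, GPX4, SLC7A11, SLC3A2, FTL, FTH1, TFRC, ACSL4, TXNRD1 and NQO1. All 10 were found in the gene table of the input libraries, and 1 of them, TXNRD1, carried 1 of the 2364 differential ac4C peaks in the authors' deposited table. The cells were DLD1, an established human colorectal cancer line of epithelial origin, at passage 5. They carried a short hairpin RNA against NAT10 (shNAT10), the acetyltransferase that writes N4-acetylcytidine (ac4C) on RNA, or the control hairpin shNC. The series comprised 12 libraries in 4 groups of 3, an input and an anti-ac4C immunoprecipitate for each hairpin. Gene levels were given for the 6 inputs only, in FPKM (fragments scaled to gene length and library size). Immunoprecipitate levels were not analysed here. The columns taken as shNAT10 were labelled sh and were assigned by elimination. The labels do not state hairpin sequences, clonality or whether replicates were separate cultures. The p-values therefore measure the spread between these samples, which may be technical. In the main limma fit that spread was mostly pooled over genes. The study asked which mRNAs carry ac4C that depends on NAT10.

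Ferroptosis is a form of cell death in which iron drives the peroxidation of membrane lipids. Cells hold it off by importing cystine for glutathione, by reducing lipid peroxides with the selenoenzyme GPX4, and by keeping quinones and thioredoxin reduced. Iron enters through the transferrin receptor and is stored inside ferritin shells, and the messages for both are controlled by iron regulatory proteins that bind stem-loops in the RNA. Colorectal cancer cells have a high demand for iron, and several genes of this defence are known targets of the transcription factor NRF2 (NFE2L2).

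The targeted gene went against the label in part of the libraries. NAT10 was listed at FPKM 0, 28.1 and 31.4 in replicates 1 to 3 labelled shNAT10, against 1.24, 3.95 and 2.89 in shNC. It was below every shNC library in 1 library labelled shNAT10 and above all of them in 2. The log2 difference was 1.48 (SE 1.86, limma adjusted p = 0.754). It was -1.81 with replicates 2 and 3 labelled shNAT10 left out. That fit was added after the data had been seen and keeps only the library at 0, so its negative sign was fixed in advance. Fragments on genes, recovered as whole numbers from the FPKM values, ranged from 1223595 to 1302572 in the libraries labelled shNAT10 and from 2634957 to 2756163 in shNC. Epithelial markers were present, with a summed level of 8171 to 8738 FPKM over 12 genes in the libraries labelled shNAT10 and 5192 to 5394 in shNC, ranges that did not overlap. KRT8, a keratin of simple epithelia that made up most of that sum, was at 5643, 5573 and 5866 FPKM in the libraries labelled shNAT10, against 3112, 3774 and 3294 in shNC. EPCAM, an epithelial adhesion molecule, lay the other way, at 38.3, 80.3 and 128 FPKM in the libraries labelled shNAT10, against 226, 370 and 262 in shNC. A list of 8 fibroblast and muscle markers summed to 9.62 to 76.9 FPKM in libraries labelled shNAT10 and 0 to 3.81 in shNC. Each of the 8 was above 0 in at least 1 library, and 3 were abundant enough to test. TAGLN, on this list, was at 68.9, 2.05 and 1.49 FPKM in replicates 1 to 3 labelled shNAT10 and at 0 in every shNC library. None of KRT8, EPCAM and TAGLN passed 0.05 (limma adjusted p = 0.598, 0.754 and 0.754). Over all tested genes, groups did not overlap for 2.89% in the higher direction and 6.72% in the lower. The part of depth and of these markers in the results below was not tested. In bulk RNA, fewer cells of a type and less RNA per cell cannot be told apart.

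No gene of the 10 passed the comparison of input levels. Limma was fitted to log2(FPKM + 1) of every gene averaging 1 FPKM or more. The threshold was 0.05 after Benjamini-Hochberg adjustment. Of the 10 genes, 9 were abundant enough to test and AIFM2 was not. Limma called 0 of the 9, and 0 had an unadjusted p under 0.05. Voom, a related limma method run on the recovered fragments, also called 0. Over all 10517 genes tested, limma called 20 (0.19%), of which 9 (0.0856%) were higher and 11 (0.105%) lower in the libraries labelled shNAT10, and 389 (3.7%) had an unadjusted p under 0.05. The number of calls was 1 with any 1 of the shNC libraries left out, 0 without the trend or the minimum level, and 34 without replicate 2 labelled shNAT10. The log2 difference was positive for 5 of the 9 and negative for 4, with 41.2% positive over all tested genes. Their median log2 difference was 0.01, against -0.49 for all tested genes. That order turned without shNC replicate 3, at -0.73 against -0.35, and under quantile normalization, at -0.30 against -0.08. The 9 adjusted p-values ran from 0.754 to 0.998 by limma.

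**Figure D1:**
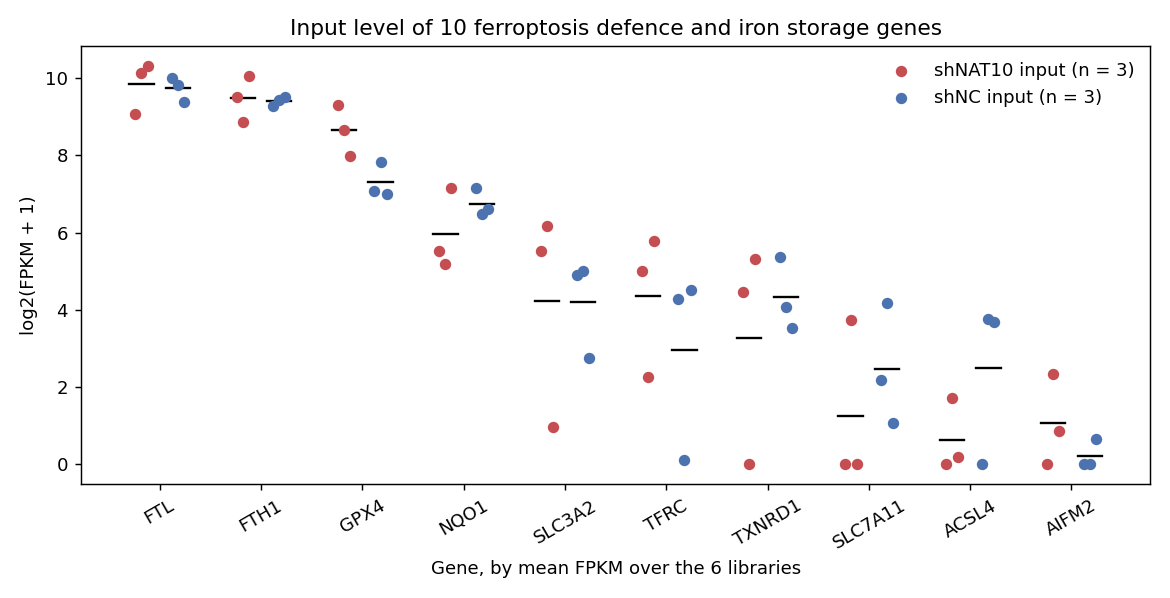
Input level of each gene as log2(FPKM + 1) in the 3 libraries labelled shNAT10 (red) and the 3 shNC libraries (blue); each point is a library and each bar the group mean. GPX4 is the only gene whose groups do not overlap, and 4 genes have libraries at 0.

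The 10 genes spanned a wide range of levels. FTL had the highest mean over the 6 libraries, 922 FPKM, followed by FTH1 at 718, GPX4 at 296 and NQO1 at 91.6. SLC3A2 (30.4), TFRC (21.6) and TXNRD1 (21.1) were of like level, and SLC7A11 (5.70), ACSL4 (4.49) and AIFM2 (0.902) were lowest. No neighbours in this order were separated in all their values. FTL was above FTH1 in 4 of 6 libraries and FTH1 above GPX4 in 6 of 6. GPX4 was above NQO1 in 5 of 6, as was NQO1 above SLC3A2. The order of SLC3A2, TFRC and TXNRD1 held in 4 of 6 libraries at each step, that of TXNRD1 over SLC7A11 in 4, that of SLC7A11 over ACSL4 in 3 and that of ACSL4 over AIFM2 in 2. Together the genes took 0.382% to 0.486% of all fragments on genes, and FTL with FTH1 made up 49.1% to 68.9% of that. FTH1 overlaps BEST1, described below, and the part of that overlap in this order and in these shares was not tested. At least 1 library was listed at 0 for 3 of the 9 tested genes, against 77.4% of all tested genes.

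The iron storage genes were the most abundant of the 10. Ferritin is a hollow shell of heavy chains (FTH1), which oxidise iron for storage, and light chains (FTL), which help it to mineralise. FTL (ENSG00000087086, chr19:48965309-48966879 in RefSeq, GRCh38.p14, as are all gene positions here) was at FPKM 542, 1115 and 1277 in replicates 1 to 3 labelled shNAT10, against 1019, 912 and 665 in shNC. They rested on 661, 1467 and 1343 fragments for the libraries labelled shNAT10, against 3028, 2630 and 2002 in shNC. The groups overlapped, with replicate 1 labelled shNAT10 below every shNC library and the other two above. The mean was 978 ± 386 FPKM in the libraries labelled shNAT10, against 866 ± 181.5 in shNC (SD, n = 3 each), a log2 difference of 0.11 (SE 0.51, 95% interval -0.90 to 1.11, limma adjusted p = 0.955). The difference was negative on the TPM scale (FPKM scaled to the same sum in each library), under quantile normalization, by voom and without replicate 2 or 3 labelled shNAT10 or shNC replicate 3. These scalings also moved the median of all tested genes, to -0.74 on the TPM scale and -0.08 under quantile normalization.

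The start of the FTL message holds the 6-base loop that iron regulatory proteins recognise, and it is shown because this loop is the best known control of ferritin translation. The 30 bases below lie at chr19:48965329-48965358 on the plus strand (GRCh38.p14, RefSeq), and capitals mark the motif CAGTGN, which begins at base 39 of the transcript.
FTL: gtctgtctcttgcttcaaCAGTGTttggac
The same letters occurred on the gene strand in the first 50 transcribed bases of 6.365% of 35116 RefSeq promoter windows, so a match alone is a description. Promoter windows were at hand for 8 of the 10 genes, not for FTH1 and SLC7A11, and the motif was also found in 1 window of SLC3A2.

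FTH1 (ENSG00000167996, chr11:61964285-61967634) was at 731, 463 and 1066 in the libraries labelled shNAT10, against 623, 690 and 735 in shNC. The shNC values differed by 1.18-fold at most, the smallest spread among the 10 genes, and lay inside the range of the libraries labelled shNAT10. The log2 difference was 0.06 (SE 0.56, 95% interval -1.04 to 1.16, limma adjusted p = 0.979), and it was negative on the TPM scale, under quantile normalization, by voom and without replicate 3 labelled shNAT10, and 0.00 without shNC replicate 1. Within a library the ratio of FTH1 to FTL RNA, both per length, was 1.35, 0.415 and 0.835 in the libraries labelled shNAT10. It was 0.611, 0.757 and 1.105 in shNC, so the listed proportion of the messages varied under either hairpin. FTH1 overlaps BEST1, described below, and the part of that overlap in the ratio was not tested.

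FTH1 shares part of its sequence with a neighbour. In RefSeq, BEST1, which encodes a chloride channel best known from the retinal pigment epithelium, overlaps FTH1 by 1231 bases. BEST1 was given 6796, 7641 and 8224 fragments in the libraries labelled shNAT10 and 18456, 21519 and 23589 in shNC. These numbers were 3.29, 5.43 and 3.17 times those of FTH1 in the libraries labelled shNAT10 and 4.31, 4.675 and 4.61 times in shNC. Together the pair took 0.680%, 0.734% and 0.884% of fragments in the libraries labelled shNAT10, against 0.825%, 0.991% and 1.06% in shNC, and the groups overlapped. BEST1 itself had a log2 difference of -0.17 (SE 0.57, limma adjusted p = 0.927). BEST1 was picked after its values were seen. The sources used here do not give whether counting used strand, so fragments of the pair cannot be told apart where they overlap. Ferritin also has many processed copies. Of 25 FTH1 pseudogenes listed, 11 were above 0 in some library, and they summed to 1.52 to 7.95 FPKM in the libraries labelled shNAT10 and 6.13 to 114 in shNC. The highest value came from FTH1P4, at 112 in shNC replicate 2 and 0 in the other 5 libraries. Of 16 FTL pseudogenes 1 was above 0, FTLP3, at no more than 2.24 FPKM.

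**Figure D2:**
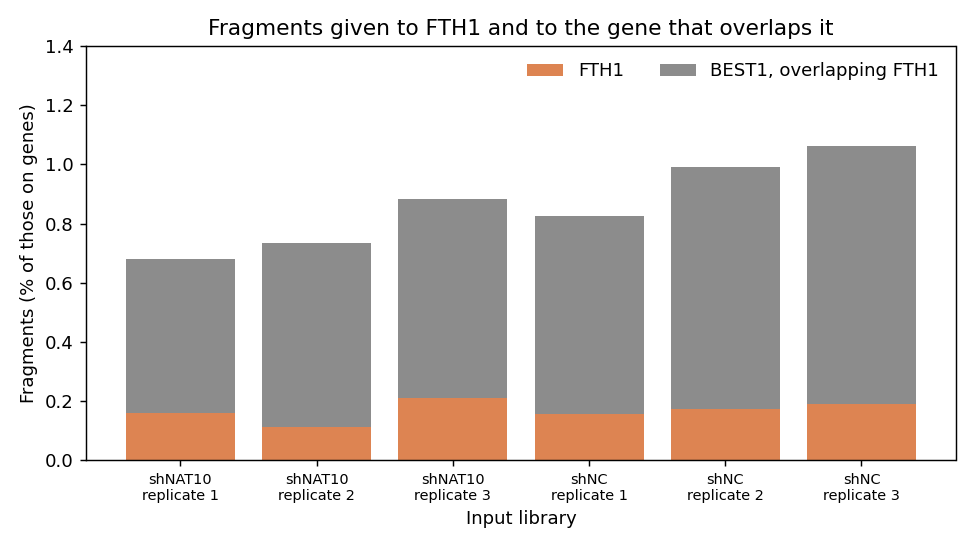
Fragments given to FTH1 (orange) and to the overlapping gene BEST1 (grey), as a percentage of all fragments on genes in each input library, with bars starting at 0. In all 6 libraries the larger part was given to BEST1, and the sum ran from 0.680% to 1.06%.

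TFRC is the transferrin receptor, which brings iron into the cell. TFRC (chr3:196049284-196082090) was at FPKM 31.1, 3.81 and 54.3 in the libraries labelled shNAT10, against 18.6, 0.0772 and 21.9 in shNC, and the lowest of these rested on 2 fragments. The groups overlapped, and replicate 2 was the low one under either hairpin. TFRC differed by 1.38 in log2 (SE 1.73, 95% interval -2.02 to 4.78, limma adjusted p = 0.754). Without shNC replicate 2 it was -0.05.

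GPX4 is the selenoenzyme that reduces lipid peroxides in membranes, and it was the only gene of the 10 whose groups did not overlap. GPX4 (ENSG00000167468, chr19:1103994-1106779) was at FPKM 627, 405 and 253 in replicates 1 to 3 labelled shNAT10, against 134, 228 and 127 in shNC. The lowest library labelled shNAT10, replicate 3, stood just above the highest shNC library, replicate 2. The mean was 428 ± 188 FPKM in the libraries labelled shNAT10, against 163 ± 56.1 in shNC (SD, n = 3 each). On the log2 scale GPX4 differed by 1.34 (SE 0.81, 95% interval -0.26 to 2.95), which missed the threshold (adjusted p = 0.754 by limma). An exact permutation test gave p = 0.1, the smallest two-sided value that 3 against 3 allows. Groups were separated in this direction for 1 of the 9 tested genes here and for 2.89% of all tested genes.

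The separation of GPX4 depended on the scale. GPX4 held 1758, 1224 and 613 fragments in the libraries labelled shNAT10 and 918, 1511 and 881 in shNC. As a share of each library this was 0.135%, 0.0993% and 0.0501% in the libraries labelled shNAT10, against 0.0333%, 0.0573% and 0.0326% in shNC, and replicate 3 labelled shNAT10 then lay within the shNC range. The groups also overlapped after the FPKM values of each library were scaled to the same sum, at 1084, 727 and 356 in the libraries labelled shNAT10, against 260, 428 and 271.5 in shNC. The denominator behind the deposited FPKM was 1.07, 1.215 and 0.979 times the fragments on genes in the libraries labelled shNAT10 and 1.23, 1.25 and 1.27 times in shNC. The difference was positive in all 18 alternatives, from 1.02 to 1.99, and passed in 0 of them. Since the FPKM groups were separate, this sign was fixed in advance in every alternative that kept the FPKM scale. Only alternatives on another scale could have turned it, and these gave 1.04 to 1.34.

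**Figure D3:**
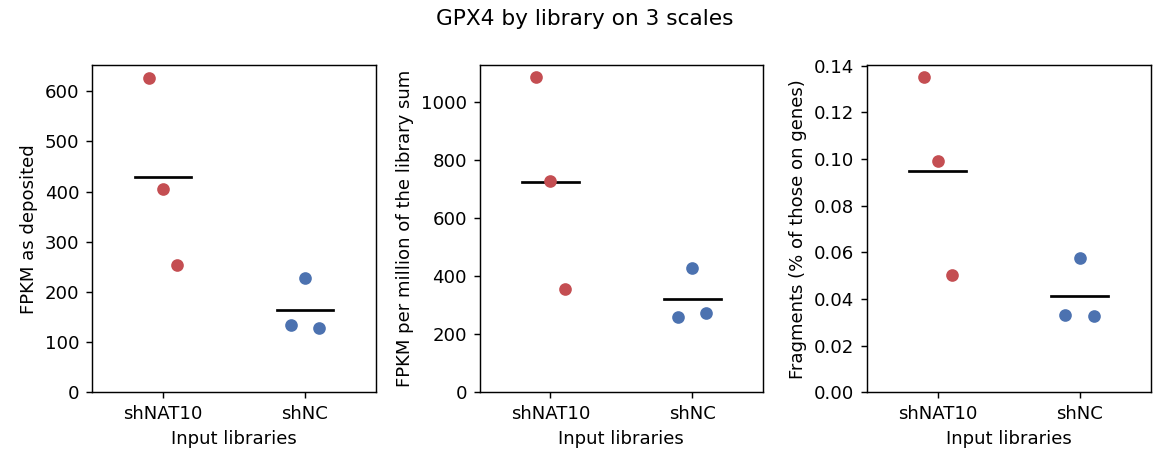
GPX4 in each input library as FPKM (left), as FPKM scaled to the same sum in each library (middle) and as a percentage of fragments on genes (right), for libraries labelled shNAT10 (red) and shNC (blue), with bars at the group means. The groups are separate on the left and overlap in the other two panels.

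SLC7A11 and SLC3A2 are the light and heavy chains of the transporter that brings in cystine, the raw material of glutathione. SLC7A11 (chr4:138164097-138242349) was listed at 0, 12.4 and 0 FPKM in the libraries labelled shNAT10, against 3.52, 17.2 and 1.09 in shNC. They rested on 0, 179 and 0 fragments for the libraries labelled shNAT10, against 115, 545 and 36 in shNC. A count of 0 allows up to 3 fragments, which is 0.224 FPKM in replicate 1 and 0.260 in replicate 3, a limit that covers counting error only. Both zeros lay below every shNC library, while replicate 2 lay within their range. SLC7A11 differed by -1.23 in log2 (SE 1.88, 95% interval -4.94 to 2.48, limma adjusted p = 0.807) and was negative in all 18 alternatives, from -5.24 with a pseudocount of 0.01 to -0.37 without shNC replicate 2. Without replicate 2 labelled shNAT10 only the zeros of SLC7A11 are left under that label, so that sign was fixed in advance. Its antisense gene, SLC7A11-AS1, overlaps it by 14081 bases and was listed at 0, 0 and 4.34 FPKM in the libraries labelled shNAT10 and at 0.09595, 0 and 0 in shNC.

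SLC3A2 (chr11:62856109-62888860) was at 44.9, 71.0 and 0.967 FPKM in the libraries labelled shNAT10, against 28.9, 31.0 and 5.69 in shNC. Replicate 3 was lowest under either hairpin and rested on 6 fragments in the library labelled shNAT10. Replicates 1 and 2 labelled shNAT10 were above all shNC libraries. The log2 difference was 0.01 (SE 1.63, 95% interval -3.21 to 3.22, limma adjusted p = 0.998), and it ran from -0.97 without replicate 2 labelled shNAT10 to 1.63 without replicate 3. SLC3A2 was above SLC7A11, per length, in all 6 libraries. The ratio was 5.73 in replicate 2 labelled shNAT10 and 8.20, 1.80 and 5.23 in shNC, with no ratio where SLC7A11 was at 0.

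AIFM2, also called FSP1, reduces ubiquinone at membranes and stops lipid peroxidation apart from glutathione. AIFM2 (chr10:70112271-70132825) was the least abundant of the 10 genes, listed at FPKM 0, 4.03 and 0.813 in the libraries labelled shNAT10 and at 0, 0 and 0.568 in shNC. These values rested on 0, 31 and 5 fragments in the libraries labelled shNAT10, against 0, 0 and 10 in shNC. Its mean was below the minimum of 1 FPKM. In the fit without that minimum the log2 difference was 0.85 (SE 0.90, 95% interval -1.10 to 2.80, adjusted p = 0.674 by limma). No difference in AIFM2 was shown in either direction, and no deposited peak lay within it. The part of depth in this was not tested.

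NQO1 is a quinone reductase and a textbook target of NRF2. NQO1 (ENSG00000181019, chr16:69709401-69726560) was at 45.3, 35.3 and 142 FPKM in the libraries labelled shNAT10, against 142, 87.9 and 97.5 in shNC. Replicates 1 and 2 labelled shNAT10 were below every shNC library, and replicate 3 matched the highest. The mean was 74.2 ± 58.85 FPKM in the libraries labelled shNAT10, against 109 ± 28.9 in shNC (SD, n = 3 each), a log2 difference of -0.79 (SE 1.16, 95% interval -3.08 to 1.49, limma adjusted p = 0.798). The difference was negative in all 18 alternatives, from -1.39 to -0.41. Without replicate 3 labelled shNAT10 the libraries left under that label are below every shNC library, so that sign was fixed in advance.

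TXNRD1, the cytosolic thioredoxin reductase and another selenoenzyme (chr12:104215779-104350307), was at 20.9, 0 and 38.95 FPKM in the libraries labelled shNAT10, against 40.3, 15.8 and 10.5 in shNC. They rested on 195, 0 and 313 fragments for the libraries labelled shNAT10, against 915, 348 and 242 in shNC, and the zero allows up to 0.2985 FPKM. Apart from that zero the libraries labelled shNAT10 lay within the shNC range. In log2 TXNRD1 differed by -1.06 (SE 1.70, 95% interval -4.42 to 2.30, limma adjusted p = 0.818). It was 0.57 without replicate 2 labelled shNAT10 and 0.13 with replicates 2 and 3 left out. RPL18AP3, a pseudogene inside TXNRD1, had 109 FPKM in replicate 1 labelled shNAT10 and no more than 4.61 in the other libraries.

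ACSL4 charges the polyunsaturated fatty acids that make membranes open to peroxidation, and so acts against the defence. ACSL4 (chrX:109641335-109733257) was listed at 0, 2.29 and 0.130 FPKM in the libraries labelled shNAT10, from 0, 22 and 1 fragments. In shNC it was at 0, 12.7 and 11.8, from 0, 267 and 260 fragments. Replicate 1 was at 0 under either hairpin, so the groups overlapped. ACSL4 differed by -1.85 in log2 (SE 1.83, 95% interval -5.47 to 1.76, limma adjusted p = 0.754), and it was negative in all 17 alternatives that gave a value, from -3.10 without shNC replicate 1 to -1.21 without shNC replicate 2. The alternative that keeps only replicate 1 labelled shNAT10, at 0, was fixed in sign in advance.

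**Figure D4:**
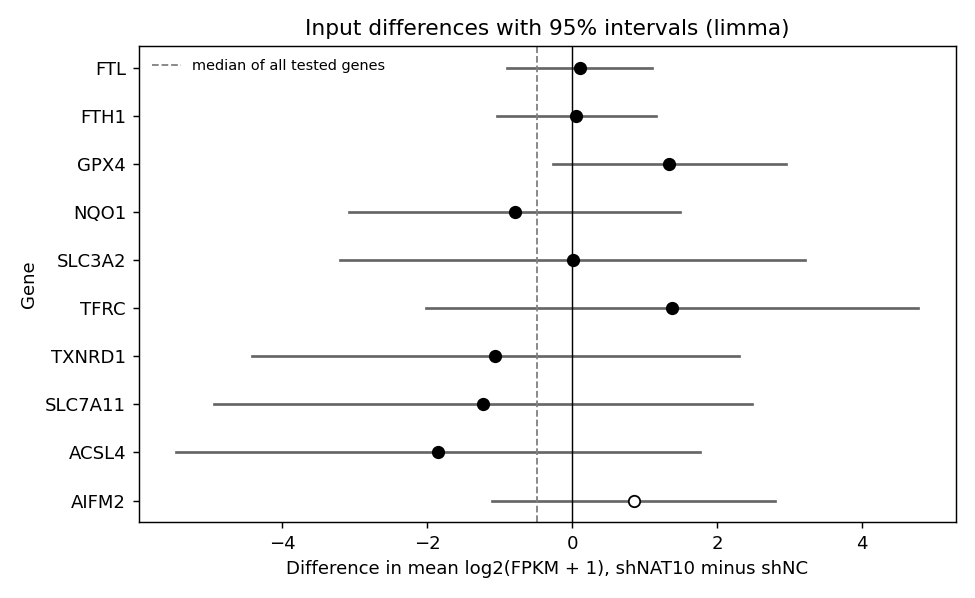
Difference in mean log2(FPKM + 1), libraries labelled shNAT10 minus shNC, with 95% intervals from limma; filled points come from the fit of 10517 genes and the open point (AIFM2) from the fit without a minimum level. All 10 intervals include 0, and the dashed line marks the median of all tested genes at -0.49.

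The spread between replicates differed widely among the genes. Over the 9 tested genes, the SD of log2(FPKM + 1) in the libraries labelled shNAT10 ran from 0.60 for FTH1 to 2.85 for TXNRD1. In shNC it ran from 0.12 for FTH1 to 2.48 for TFRC. The median SD over the 9 tested genes was 1.05 in the libraries labelled shNAT10 and 0.95 in shNC. Over all tested genes it was 1.61 in the libraries labelled shNAT10 and 1.67 in shNC. FTH1, FTL, NQO1 and GPX4, the 4 most abundant genes, had the 4 lowest SDs of the 9 in shNC.

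The letters TGACNNNGC, the core of the element through which NRF2 acts, were searched on both strands of the 300-base promoter windows, 250 bases before and 50 after each start. They were found in 4 of the 13 windows of these genes (in AIFM2, SLC3A2 and TXNRD1) and in 13.35% of all 35116 windows. A match of each gene is shown because these genes are reductases or transporters of the same defence; TXNRD1 had 2 more. Capitals mark the motif.
AIFM2: gggcggggcgTGACTCAGCactcgtgctg
SLC3A2: cgagggtgggTGACTCAGCgtcctccttc
TXNRD1: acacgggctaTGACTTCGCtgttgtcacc
The AIFM2 run lies at chr10:70132829-70132857, opposite to the gene, the SLC3A2 run at chr11:62881652-62881680 and the TXNRD1 run at chr12:104215670-104215698, both on the gene's strand (all plus strand of GRCh38.p14). AIFM2 and SLC3A2 share all 9 letters of the motif. NFE2L2, the gene of NRF2, was listed at 0, 0 and 62.0 FPKM in the libraries labelled shNAT10, against 32.1, 64.6 and 49.9 in shNC, and did not pass (log2 difference -3.59, SE 1.71, limma adjusted p = 0.754). No match in a window says only that these letters are not in it.

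Other genes of the same pathways gave no call by limma either. The 6 lists held 90 genes, of which 66 were tested. Limma called 0, against 0.19% of all tested genes, of which 41.2% had a positive difference. An unadjusted p under 0.05 was reached by 3 of the 66, all with a negative difference, against 3.7% of all tested genes. TXN and NFE2L2, named after their values were seen, were among these 3. The median log2 difference was -1.08 over the 66, against -0.49 over all tested genes. Groups did not overlap for 2 genes in the higher direction and 9 in the lower, where all tested genes gave 2.89% and 6.72%.

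By function, glutathione and cystine supply had 10 tested genes with a median log2 difference of 0.05, and SLC1A5, a glutamine transporter, was its most abundant, at 54.9, 68.3 and 37.1 FPKM in the libraries labelled shNAT10, against 77.5, 88.0 and 26.8 in shNC. Genes for NADPH, thioredoxin and quinone reduction had a median of -1.66 over 12. PRDX1, a peroxiredoxin and the most abundant of these, was at 58.6, 24.6 and 309 in the libraries labelled shNAT10, against 238, 286 and 302 in shNC. TKT, a transketolase of the pentose phosphate pathway, was at 91.9, 109.5 and 165 FPKM in the libraries labelled shNAT10, against 90.4, 57.6 and 73.1 in shNC, and its groups did not overlap (log2 difference 0.70, SE 1.11, limma adjusted p = 0.817). Thioredoxin itself (TXN) was at 0.630, 163 and 21.2 in the libraries labelled shNAT10, against 109, 177 and 82.3 in shNC.

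Iron transport, haem and ferritin turnover had a median of -0.34 over 15 tested genes, with PCBP1, an iron chaperone of ferritin, at 136, 117.5 and 67.7 FPKM in the libraries labelled shNAT10, against 112, 39.1 and 189 in shNC. Membrane lipid genes had -1.64 over 13, with PEBP1, a partner of lipoxygenases, at 61.1, 9.75 and 290 in the libraries labelled shNAT10, against 70.7, 4.28 and 43.1 in shNC. Regulators of ferroptosis had -0.48 over 11, with ATF4, a transcription factor of the amino acid response, at 289, 165 and 76.0 in the libraries labelled shNAT10, against 248, 125 and 320 in shNC. Selenoprotein synthesis had -1.67 over 5, with SEPHS2, which makes the selenium donor, at 0, 40.03 and 0 in the libraries labelled shNAT10, against 0, 40.8 and 30.4 in shNC. For each of these 4 genes the groups overlapped.

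PSTK, a kinase in selenocysteine synthesis, was at 0, 0 and 0.273 FPKM in the libraries labelled shNAT10, against 16.9, 18.7 and 4.91 in shNC, and its groups did not overlap (log2 difference -3.56, SE 1.87, limma adjusted p = 0.754). By voom, an alternative added once the data had been seen, PSTK passed (voom adjusted p = 0.0200), and it was named here for that reason. Voom called 0.903% of all tested genes.

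FTL had the highest mean of the 10, and the tested genes whose levels were most like it over the 6 libraries were sought by Pearson correlation of log2(FPKM + 1). They were PWWP2B (r = 0.992), MT2A (r = 0.988), a metallothionein that binds zinc and copper, and the antisense RNA AP001972.2 (r = 0.974). MT2A was at 27.1, 413 and 514 FPKM in the libraries labelled shNAT10, against 180, 162 and 60.4 in shNC, so it was low and high in the same libraries as FTL but over a wider range. The points share their libraries and depth, and with 10517 genes searched over 6 points these values are a description only.

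The deposited peak table compared ac4C enrichment between the hairpins, and TXNRD1 was the only gene of the 10 with a peak in it. The peak lay at chr12:104348958-104349107 (GRCh38, plus strand), 150 bases in the 3' UTR, ending 1200 bases before the RefSeq end of the gene. In the authors' deposited table it had a fold enrichment of 40.5, a log2 fold change of 9.04 and a differential FDR of 7.94e-11. Of the 2364 peaks, 94 had a higher log2 fold change and 98 a larger one in either direction, while 518 had a larger enrichment (median 10.5). The authors' scan found 0 CXX sites in it, the repeated triplet linked to ac4C, as in 37.4% of peaks. Which hairpin stands on top of the log2 fold change is not stated, so its direction is unknown. Among all deposited peaks 61.7% had a negative value and 38.3% a positive one, and of 503 peaks in 3' UTRs 207 were positive. The TXNRD1 peak was thus of the less frequent sign. Its input level differed widely between libraries, from 0 to 40.3 FPKM, and replicate 2 labelled shNAT10 held 0 input fragments on the gene. The part of input level in the peak's value was not tested.

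The other 9 genes had no peak in the deposited table, which lists differential peaks only, so whether they carried ac4C was not analysed here. A peak was carried by 1 of the 9 tested genes, against 15.4% of all tested genes. GPX4, FTL and FTH1, with the most fragments of the 10, were among those without.

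A peak that the authors gave to another gene lay inside NQO1. It was at chr16:69710382-69710583 on the plus strand, 202 bases, and was given to AC092115.2 (ENSG00000261602), an antisense RNA, while NQO1 runs on the minus strand and ends 981 bases from it. In the authors' deposited table it had a fold enrichment of 13.7, a log2 fold change of -5.95 and a differential FDR of 7.76e-09, with 0 CXX sites. AC092115.2 was at 1.25, 392 and 0 FPKM in the libraries labelled shNAT10, against 140, 57.7 and 294 in shNC (log2 difference -3.81, SE 1.47, limma adjusted p = 0.754). Without knowing whether strand was used, reads of NQO1 and of its antisense partner cannot be told apart.

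**Figure D5:**
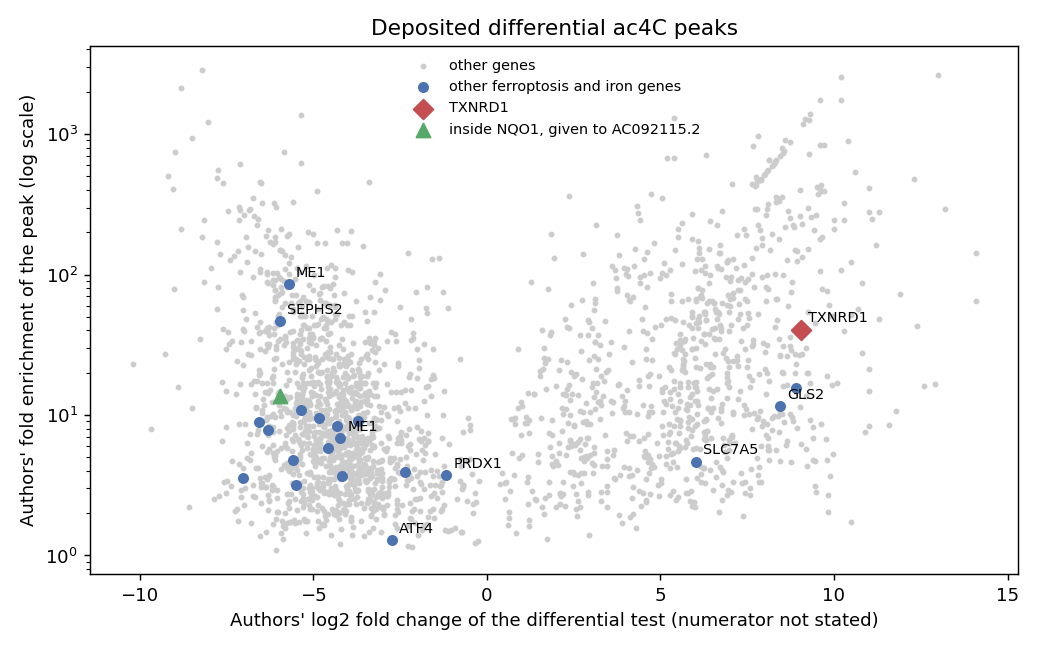
Deposited fold enrichment (vertical, log scale) against the deposited log2 fold change (horizontal) of differential ac4C peaks: TXNRD1 as a red diamond, the peak inside NQO1 as a green triangle, other ferroptosis and iron genes in blue and the rest of the 2364 peaks in grey. The TXNRD1 peak stands at 9.04 and 40.5, and 17 of the 20 peaks of other pathway genes are negative, against 61.7% of all peaks.

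Among the other pathway genes 17 of 90 carried 20 peaks in the authors' deposited table, of which 17 were negative and 3 positive. Over all deposited peaks 61.7% were negative. Some of the 20 peaks share a gene (SLC1A5 and ME1, all negative), so they are not independent. Of the 66 tested, 15 (22.7%) carried a peak, against 15.4% of all tested genes. Positive peaks lay in GLS2, a mitochondrial glutaminase (8.46), and SLC7A5, an amino acid transporter that also pairs with SLC3A2 (6.02). The lowest value was -7.03, in the 5' UTR of PEBP1. SLC1A5 had the most peaks, 3, with log2 fold changes of -4.18, -4.82 and -5.57. The peak of GLS2 stands beside input levels of 0 in all 3 libraries labelled shNAT10 and all 3 of shNC.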

How the data were processed

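Fragments were trimmed, aligned and tested with tools that the submitters' processing notes list as cutadapt 2.5, HISAT2 2.1.0 and HOMER 4.10.4, with GRCh38 and GRCm38 named as builds and no roles given. The deposited gene table gives FPKM per input library, per the file headers. The deposited peak table gives the authors' fold enrichment as a ratio, their log2 fold change and their FDR as log10 values and p-values. How counting and peak calling were set is not given in the sources used here.

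From the FPKM values, whole fragments were recovered, using mitochondrial mRNA lengths to set each library's scale. They were whole within 0.0001 for 15014 of 15014 genes above 0, and totals ran from 1223595 to 2756163. Gene lengths were searched until they gave whole numbers, so this rate does not check genes above 0 in only 1 library. Floors of 3 fragments cover counting error only. The intervals of the log2 differences come from limma and rest on the spread between libraries. Input levels were tested with limma 3.58.1 in R 4.3.3 on log2(FPKM + 1), using all 6 libraries. Settings were a trended prior, a minimum average of 1 FPKM and Benjamini-Hochberg adjustment. In the main fit the prior carried 212.6 degrees of freedom. Each SE and p-value there thus leaned mostly on a variance trend shared by all tested genes. The spread of a gene's own 6 values counted for little. The procedure was also run on simulated data with much less spread than these libraries, so that run does not show its power or error rate here. Unmapped per-sample columns numbered 0. Replicate numbers are shared between hairpins, but deviations of same-numbered libraries correlated at 0.00, -0.02 and 0.01 over 10517 genes, so the samples were treated as unpaired. Named genes were the 10 members, NAT10, in each other list up to 2 genes past the test or else the most abundant tested gene, list genes with a deposited peak, pseudogenes and antisense genes of a member, and the 3 genes most like FTL. Overlapping genes, markers, genes at an unadjusted p under 0.05 and PSTK, picked because it passed by voom, were added after their values were seen. The members and lists were chosen with earlier results of these data known. Promoter windows are from RefSeq GRCh38.p14, with 8 of 10 genes matched. Alternatives covered scaling, pseudocount, the minimum level, left-out libraries, a replicate block and voom. The values of 1 gene of the other lists are not reported here.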

Additional observations from a re-analysis of the deposited data

How the results depend on the processing

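Over 164 alternative values for the 10 genes, 0 passed the threshold, 22 had the opposite sign, and 5 genes (ACSL4, AIFM2, GPX4, NQO1 and SLC7A11) kept their sign throughout. AIFM2 had only 3 alternatives, each without a library in which it was at 0. Signs of the others were also partly fixed in advance. GPX4 had separate groups in FPKM, so only alternatives on another scale could have turned it. Without replicate 2 labelled shNAT10, SLC7A11 kept only zeros under that label. With replicates 2 and 3 left out, the kept library was at 0 for SLC7A11 and ACSL4 and below every shNC library for NQO1. A constant sign is thus a description only. On the TPM scale the log2 difference was -0.21 for FTH1, -0.17 for FTL and -0.30 for SLC3A2. Under quantile normalization it was -0.30 for FTH1 and -0.27 for FTL, and by voom, added after seeing the data, -0.14, -0.12 and for SLC3A2 -0.38. SLC3A2 was at -0.24 with a pseudocount of 0.01 and -0.20 with 0.1. NAT10 was at -0.23 with 0.01 and ran from 0.62 to 3.13 with a library left out. With replicates 2 and 3 labelled shNAT10 left out, also added and counted among the alternatives, NAT10 was at -1.81, FTL at -0.65 and TXNRD1 at 0.13. Leaving out each library gave -0.23 to 0.37 for FTH1, -0.13 to 0.49 for FTL, -0.97 to 1.63 for SLC3A2, -0.05 to 2.43 for TFRC and -2.09 to 0.57 for TXNRD1. The median of the genes tested among the 10 was -0.38 by voom (9 genes) and -0.73 to 0.12 with a library left out (9 or 10 genes). The median of all tested genes was -0.74 on the TPM scale, -0.20 with a mean of at least 5 FPKM, -0.15 with no minimum, -1.06 and -0.78 with pseudocounts of 0.01 and 0.1, -0.08 under quantile normalization, -1.12 with both libraries left out and -0.78 to -0.35 with each left out. Limma calls over all genes were 20, against 10 with a mean of at least 5, 0 with no minimum (340 at an unadjusted p under 0.05), 0 without a trend (480), 7 with a pseudocount of 0.01, 0 with both libraries left out (1139), 95 by voom and 1 to 34 with a library left out. Leaving out shNC replicate 1, 2 or 3 gave 1 call each, and leaving out replicate 1 or 2 labelled shNAT10 gave 12 or 34. Voom called 2 of the other pathway genes. With the replicate block 21 genes were called (408 unadjusted), none of the 10 genes among them, and the block changed no call of theirs. Counting peaks in the gene body gave 2 peaks in place of 1. The cause of these shifts was not tested. The shNC libraries held on average 2.15 times the fragments of those labelled shNAT10, which limits what the genes of low level can show.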
